A study of Mus musculus with 56 samples.

Results

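The genes described here are Ifnb1, which encodes interferon beta, and 7 genes of the type I interferon response, Ifit1, Ifit2, Ifit3, Isg15, Rsad2, Mx1, and Oasl1. They were found by their gene names in the peak annotation of 56 ChIP-seq peak lists, and 894 of 1610519 annotated peaks were assigned to these 8 genes. The lists come from bone marrow-derived macrophages (BMDMs) of wild-type mice aged 8 to 12 weeks, grown for 6 days with L929 supernatant as a source of MCSF, with 2 biological replicates per group. In the pretreatment experiment, BMDMs were left untreated (ctrl/ctrl), exposed to IL-4 (20 ng/ml) for 24 hr (IL-4 PT/ctrl), exposed to LPS (100 ng/ml) for 1 hr (ctrl/LPS), or pretreated with IL-4 for 24 hr and then exposed to LPS for 1 hr (IL-4 PT/LPS), and RNAPII-pS5, RNAPII-pS2, and p65 were immunoprecipitated. In the 1 hr experiment, untreated BMDMs and BMDMs exposed to IL-4 (20 ng/ml) for 1 hr were compared with antibodies against both RNAPII forms, the histone mark H3K27Ac, the factor PU.1, the coactivator p300, and the deacetylases HDAC1, HDAC2, and HDAC3. For HDAC3 the labels give the catalogue number of the H3K27Ac antibody, and in the RNAPII-pS2 lists of this experiment the peak names carry the opposite treatment to the labels, so signs in these RNAPII-pS2 lists are not read as effects of IL-4.

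LPS engages TLR4, whose adaptor TRIF leads through TBK1 and IRF3 to transcription of Ifnb1, with NF-kB (p65) binding at its promoter. Secreted interferon beta signals through the receptor IFNAR and the kinases JAK1 and TYK2 to a complex with STAT2 and IRF9, which binds interferon-stimulated response elements (ISREs) at antiviral genes, and several of these genes can also be reached by IRF3 directly. RNAPII-pS5 is the form of RNA polymerase II found mostly around transcription start sites, and RNAPII-pS2 is the elongating form found along gene bodies.

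To show what the promoters of these genes hold, 180 bases upstream of the start are printed for 4 of them. The sequences are from RefSeq (GRCm38.p6, the mm10 assembly of the peak lists), 5′ to 3′ on the gene's own strand. Capitals mark the ISRE letters GAAANNGAAA and the kB letters GGGNNNNNCC, searched on both strands, and where 2 matches overlap the capitals run together. The windows are chr4:88522795-88522974 (minus strand) for Ifnb1, chr4:156200819-156200998 (minus strand) for Isg15, chr12:26456453-26456632 (minus strand) for Rsad2, and chr19:34640691-34640870 (plus strand) for Ifit1.
Ifnb1: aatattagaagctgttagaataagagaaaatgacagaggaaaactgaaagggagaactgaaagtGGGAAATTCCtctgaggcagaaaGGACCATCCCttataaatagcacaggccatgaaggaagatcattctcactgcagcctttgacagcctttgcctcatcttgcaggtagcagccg
Isg15: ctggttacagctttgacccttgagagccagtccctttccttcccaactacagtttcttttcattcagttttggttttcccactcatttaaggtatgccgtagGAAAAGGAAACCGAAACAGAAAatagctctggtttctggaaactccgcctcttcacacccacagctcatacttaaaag
Rsad2: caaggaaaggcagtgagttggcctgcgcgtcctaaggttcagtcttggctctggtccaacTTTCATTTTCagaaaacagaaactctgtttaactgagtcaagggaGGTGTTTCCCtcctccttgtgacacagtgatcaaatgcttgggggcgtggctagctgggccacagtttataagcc
Ifit1: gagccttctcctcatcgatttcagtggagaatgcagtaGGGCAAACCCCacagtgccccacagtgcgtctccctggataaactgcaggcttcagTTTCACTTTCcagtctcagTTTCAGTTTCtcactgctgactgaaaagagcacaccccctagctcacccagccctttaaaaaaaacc

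In the RefSeq windows of 300 bases (250 before and 50 after the start), the ISRE letters were present in 4 of the 7 genes with a window, namely Ifit1, Ifit3, Isg15, and Rsad2, against 3.44% of all 32851 promoters. Isg15 held 3 overlapping matches, Ifit1 and Ifit3 held 2 each, and Rsad2 held 1. The kB letters were present in 5 of the 7 but also in 50.8% of all promoters. Ifnb1 had no ISRE match and 2 kB matches, and the shorter letters AANNGAAA, chosen after the sequences were seen, matched it 3 times against 23.9% of all promoters with a match. Of 40 other interferon-stimulated genes with a window, 21 held the ISRE letters, and of 12 early NF-kB target genes 0 did. A match is a description of letters and no measure of binding.

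A peak's deposited value for all antibodies except H3K27Ac is a −log10 score of peak significance (p- or q-value), and such a score is higher in a deeper library as well as at a stronger site. Depth itself is unknown, since the lists hold no reads, and the number of peaks ran from 8440 (HDAC3) to 71027 (PU.1) per sample. The value of a gene was the highest score among its peaks not annotated as intergenic, and changes are log2 differences of this score after each sample was centred on genes with a peak in all samples. A gene without a peak received the lowest score of that antibody, so a change against a group without peaks depends on this floor and is not a measured fold. The p65 lists held 9556 to 11026 peaks without LPS, 26305 to 26820 in ctrl/LPS, and 36738 to 38955 in IL-4 PT/LPS. The first untreated p300 sample stood apart, with a median score of 11.04. Centring took −0.24 to 0.34 log2 units off RNAPII changes in the pretreatment experiment and 0.81 off p300 changes. Of 8 macrophage markers, 5 had a RNAPII-pS5 peak in all 12 RNAPII-pS5 samples (Csf1r, Itgam, Cd68, Mertk, and Fcgr1). No RNAPII-pS5 peak carried the name Adgre1 or Spi1. Markers were matched by name alone, and whether the annotation holds these genes under other names was not tested. Among markers of other cells the T cell genes Cd3d and Lck, the B cell gene Ms4a1, and the dendritic cell gene Flt3 also had a peak in all 12. The macrophage gene Lyz2 had one in 10, the erythroid gene Klf1 in 8, and the neutrophil genes S100a8 and Elane in 5 and 4. Within the gene's own span, Lyz2 had a peak in 12 samples and Ms4a1 in 10. The part of other cells in the results was not tested, and in bulk samples fewer cells with a bound site and less binding per cell cannot be told apart.

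The first question was what LPS does to RNA polymerase at these genes. RNAPII-pS5 rose after LPS at Ifnb1, Ifit1, Isg15, and Rsad2 (4 of 8 genes, limma, adjusted p of at most 0.05, against 7.19% of 9955 genes called higher). 0 of the 8 fell, whereas 18.6% of all genes did. The median log2 change was 2.04 for the 8 genes and −0.53 for all genes. The scores of ctrl/LPS lay above those of ctrl/ctrl without overlap at 7 of the 8 genes (16.3% of all genes).

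Ifnb1, the cytokine gene itself, had no RNAPII-pS5 peak outside intergenic sequence in either ctrl/ctrl or either IL-4 PT/ctrl sample. After LPS its score was 31.31 and 29.54 in ctrl/LPS and 21.62 and 22.62 in IL-4 PT/LPS. The 4 LPS samples were therefore the only ones with a peak at the gene, and the pretreated pair lay below the other pair. The change after LPS was 4.64 ± 0.251 (SE, adjusted p = 0.00228), and with the floor set 4 times as high it was 2.64. Ifnb1 entered this fit through the LPS groups alone and was compared with the floor, so the adjusted p is not read as support. An intergenic RNAPII-pS5 peak 14.8 kb upstream was assigned to Ifnb1 too, with 11.21 and 8.82 in ctrl/ctrl, 6.01 and no peak in IL-4 PT/ctrl, 12.23 and 18.06 in ctrl/LPS, and 11.87 and 11.55 in IL-4 PT/LPS. With intergenic peaks counted, the change at Ifnb1 was 1.83 ± 0.625 and was not called (adjusted p = 0.0807), while Ifit1, Isg15, and Rsad2 were called (3 of 8, against 8.23% of 11749 genes called higher and 18% lower). Ifnb1 is a gene without introns (chr4:88522025-88522774, minus strand), and its RNAPII-pS5 peaks after LPS covered 2417 to 2642 bp.

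**Figure D1:**
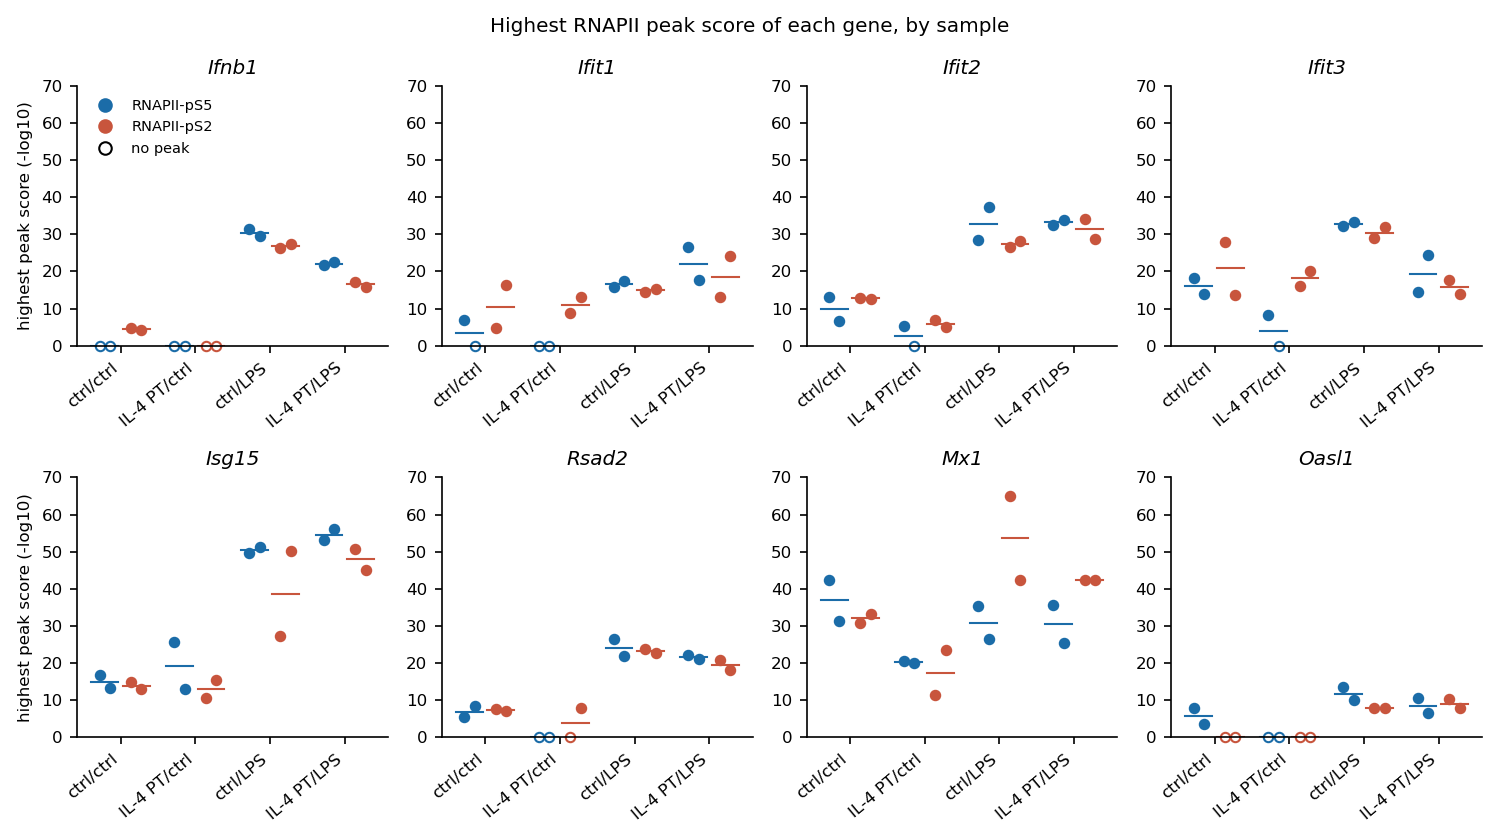
Highest peak score (−log10 scale) of RNAPII-pS5 (blue) and RNAPII-pS2 (red) for each of the 8 genes in the 4 groups of the pretreatment experiment, 1 point per sample. Open circles at 0 are samples without a peak outside intergenic sequence and lines are group means with such samples at 0. At Ifnb1 RNAPII-pS5 has such a peak in the 4 LPS samples only, and at Rsad2 and Oasl1 the RNAPII-pS5 peaks of ctrl/ctrl are missing in IL-4 PT/ctrl.

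Isg15, which encodes a ubiquitin-like protein attached to other proteins, had RNAPII-pS5 scores of 16.77 and 13.12 in ctrl/ctrl and 49.7 and 51.27 in ctrl/LPS. The groups were far apart, and the change was 2.01 ± 0.388 (adjusted p = 0.0139). The peak also widened from 404 and 420 bp to 3193 and 3205 bp, longer than the gene (chr4:156199424-156200818, minus strand). When only peaks centred within 1000 bp of the start are counted, these wide peaks drop out and the fitted change turns to −2.94, so this value follows the position of the centre. The call was also lost without ctrl/ctrl replicate 2 or either ctrl/LPS sample (adjusted p of 0.0551 to 0.0659). Over the 8 genes together, RNAPII-pS5 peaks covered 7520 and 7748 bp in ctrl/ctrl and 35424 and 33373 bp in ctrl/LPS. Over all genes the covered length was 8077787 and 7468266 bp in ctrl/ctrl and 5722969 and 6057896 bp in ctrl/LPS. The median single peak of all genes was 487 bp wide in both ctrl/ctrl samples and 492 and 497 bp in ctrl/LPS.

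Rsad2, the gene of the antiviral enzyme viperin, went from 5.37 and 8.37 to 26.35 and 21.86 after LPS. The ctrl/ctrl peaks lay 173 and 14449 bp past the start, and the ctrl/LPS peaks 14424 and 14399 bp past it. The change was 2.08 ± 0.332 (adjusted p = 0.00733). Ifit1, which encodes a protein that binds foreign RNA, had a peak of 6.9 in 1 ctrl/ctrl sample and none in the other, and 15.67 and 17.47 in ctrl/LPS (2.64 ± 0.687, adjusted p = 0.0372). Within the gene's own span with 1000 bp on either side, where intergenic peaks count too, the change at Ifit1 was 1.67 (adjusted p = 0.0103). The ctrl/ctrl peak of 6.9 lay 9777 bp past the start, annotated to the end of the gene, and is kept in this span. Both genes were separated between the groups, but the call at Ifit1 was lost on leaving out either ctrl/LPS sample (adjusted p = 0.12 and 0.124) or any of the 4 samples of the IL-4 PT groups.

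Of the 4 genes not called, 3 had higher scores in both ctrl/LPS samples than in either ctrl/ctrl sample. Ifit2, a relative of Ifit1, scored 13.02 and 6.57 in ctrl/ctrl and 28.55 and 37.28 in ctrl/LPS (2.06, adjusted p = 0.0699). Ifit3, whose product binds IFIT1, scored 18.23 and 13.96 against 32.23 and 33.41 (1.28, adjusted p = 0.299). These are different sites, since the ctrl/ctrl peaks lay in an intron of Ifit2, at −13138 and −13117 bp, and the ctrl/LPS peaks past the end of Ifit2, at −6352 and −6424 bp. Within its own span the change at Ifit3 was 0.66 (adjusted p = 0.572). Oasl1, a member of the 2′-5′-oligoadenylate synthetase-like family, scored 7.72 and 3.51 against 13.38 and 9.95 (1.39, adjusted p = 0.0752). Mx1, the gene of a dynamin-like antiviral GTPase, overlapped, with 42.48 and 31.43 against 35.24 and 26.4 (−0.02, adjusted p = 0.973). Here too the sites differ. The ctrl/ctrl peaks lay at 541 and 478 bp, and the ctrl/LPS peaks at 16819 bp, past the gene's end, and at 1409 bp.

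RNAPII-pS2 rose after LPS at Ifnb1 and Oasl1 (2 of 8, against 9.83% of 11149 genes called higher and 13% called lower), and the groups did not overlap at 7 of the 8 (27.7% of all genes). At Mx1 and Ifit3 this compares different sites. The Mx1 peaks lay in Mx1 in ctrl/ctrl (424 and 377 bp) and in the neighboring gene Fam3b in ctrl/LPS (−9949 and −9863 bp). The Ifit3 peaks lay in Ifit2 in ctrl/ctrl (−13170 and −13198 bp) and past its end in ctrl/LPS (−6310 and −6031 bp). Ifnb1 had small RNAPII-pS2 peaks in ctrl/ctrl, with scores of 4.63 and 4.1, and 26.23 and 27.43 in ctrl/LPS (2.54 ± 0.247, adjusted p = 0.00182). Oasl1 had no RNAPII-pS2 peak outside intergenic sequence in the 4 samples without LPS and scored 7.97 and 7.82 in ctrl/LPS, 10.26 and 7.75 in IL-4 PT/LPS. Its change of 2.42 (adjusted p = 0.00236) fell to 0.42 and was no longer called with the higher floor. Oasl1 entered the RNAPII-pS2 fit through the LPS groups alone, so this adjusted p is not read as support. With intergenic peaks counted, neither gene was called, at 0.06 for Ifnb1 (adjusted p = 0.851) and 0.24 for Oasl1 (adjusted p = 0.675), or 0 of 8 against 12.1% of 13094 genes called higher and 15.3% lower. Oasl1 then had intergenic peaks of 6.18 and 5.39 in ctrl/ctrl and 4.48 and 6.66 in ctrl/LPS. Isg15 (1.33, adjusted p = 0.0519) and Ifit2 (1.03, adjusted p = 0.0558) were just outside the threshold.

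The second question was how the LPS response looks in BMDMs that had been pretreated with IL-4. RNAPII-pS5 rose after LPS in IL-4 PT cells at Ifnb1, Ifit1, Ifit2, Isg15, Rsad2, and Oasl1 (6 of 8, against 6.43% of 10296 genes called higher and 13.9% called lower), and the groups did not overlap at any of the 8 (24.7% of all genes). The changes were 3.87 at Ifnb1 (adjusted p = 0.00218), 3.84 at Ifit1 (0.0119), 3.50 at Ifit2 (0.0146), 3.83 at Rsad2 (0.00221), 2.44 at Oasl1 (0.0143), and 1.51 at Isg15 (0.0411). Ifnb1, Ifit1, Rsad2, and Oasl1 had no RNAPII-pS5 peak outside intergenic sequence in either IL-4 PT/ctrl sample, and Ifit2 had none in replicate 2. The sizes at these genes therefore depend on the floor and are not measured folds. Ifnb1 entered the fit through the LPS groups alone, so its adjusted p is not read as support. The median was 2.97 over the 8 genes and −0.27 over all genes. Ifit3 (2.38, adjusted p = 0.0903) and Mx1 (0.50, adjusted p = 0.361) did not pass. The calls at Ifnb1 and Rsad2 held on leaving out any 1 of the 8 samples. Those at Ifit1 and Oasl1 were lost without either IL-4 PT/ctrl sample or IL-4 PT/LPS replicate 1, that at Ifit2 without either IL-4 PT/LPS sample, and that at Isg15 without any 1 sample except IL-4 PT/ctrl replicate 1. RNAPII-pS2 rose in IL-4 PT cells at Ifnb1 (3.27), Ifit2 (2.13), Isg15 (1.62), and Oasl1 (2.39), or 4 of 8 against 8.11% of 11055 genes called higher and 9.55% called lower. Isg15 lost this call without any 1 sample of ctrl/ctrl, IL-4 PT/ctrl, or IL-4 PT/LPS. Ifnb1 and Oasl1 had no RNAPII-pS2 peak outside intergenic sequence in either IL-4 PT/ctrl sample, so their changes are against the floor.

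**Figure D2:**
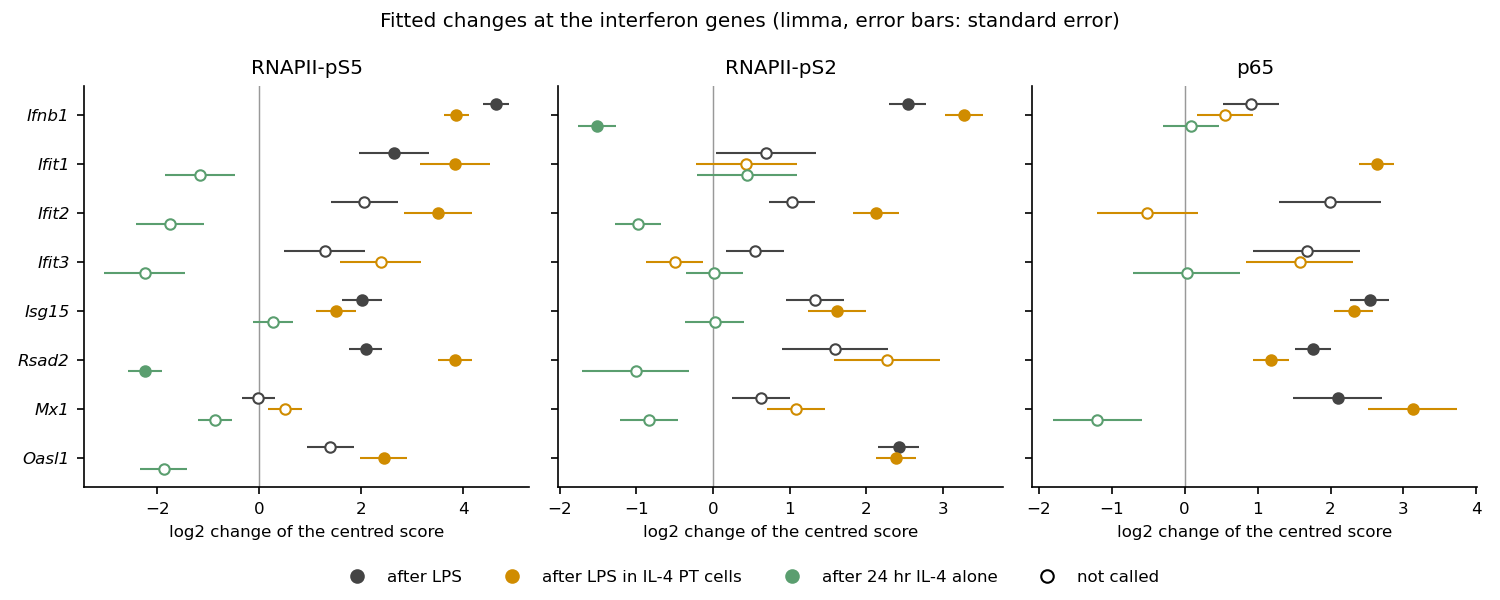
Fitted log2 change of the centred highest score (x axis) of each gene (y axis) for RNAPII-pS5, RNAPII-pS2, and p65, with the standard error from limma. Filled points passed an adjusted p of 0.05 and open points did not, and a gene without a peak in both compared groups has no point. For RNAPII-pS5 the changes after LPS in IL-4 PT cells (orange) lie to the right of those after LPS (grey) at 6 of the 8 genes, and the changes after IL-4 alone (green) lie to the left of 0 at 6 of 7. At Ifnb1, Ifit1, Rsad2, and Oasl1 the floor stands in for the RNAPII-pS5 score of both IL-4 PT/ctrl samples.

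The starting points differed. After 24 hr of IL-4 without LPS, Rsad2 lost its RNAPII-pS5 peaks, with 5.37 and 8.37 in ctrl/ctrl and none in either IL-4 PT/ctrl sample. The fitted change of −2.24 ± 0.332 (adjusted p = 0.0138) was the only call among the 7 genes with a peak (3.01% of 10215 genes called lower), and it was lost on leaving out either IL-4 PT/ctrl sample. Scores of IL-4 PT/ctrl lay below ctrl/ctrl without overlap at 5 of the 7 (22.7% of all genes), and 5 of 7 were lower at an unadjusted p under 0.05 (9.19% of all genes). The median change was −1.76 for the 7 genes and 0.01 for all genes.

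Oasl1 likewise had 7.72 and 3.51 in ctrl/ctrl and no RNAPII-pS5 peak in IL-4 PT/ctrl (−1.88, adjusted p = 0.0714). Mx1 had 42.48 and 31.43 against 20.46 and 20.05 (−0.88, adjusted p = 0.217). Ifit2 had 13.02 and 6.57 against 5.39 and no peak (−1.76, adjusted p = 0.218), and Ifit3 18.23 and 13.96 against 8.14 and no peak (−2.24, adjusted p = 0.19). At Ifit3 the ctrl/ctrl peaks were those in Ifit2 and the IL-4 PT/ctrl peak lay at the Ifit3 promoter. Within the gene's own span, where ctrl/ctrl scored 13.55 and 8, the change was −2.56 (adjusted p = 0.137). Isg15 stood aside from these genes, with 16.77 and 13.12 against 25.53 and 12.98, which overlapped. When intergenic peaks assigned to the genes were counted as well, 4 were called lower (3.22% of 12035 genes), Ifit1 by −2.25, Ifit3 by −2.19 through peaks between Ifit2 and Ifit3, Rsad2 by −2.24, and Oasl1 by −2.25.

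RNAPII-pS2 after 24 hr of IL-4 was lower at Ifnb1, whose small ctrl/ctrl peaks of 4.63 and 4.1 were missing in both IL-4 PT/ctrl samples (−1.51 ± 0.247, adjusted p = 0.0138, 1 of 7 against 5.66% of 11092 genes called lower and 6.07% called higher). With the floor 4 times as high this value was 0.14, so it rests on peaks near the lowest score, and the call was lost without ctrl/ctrl replicate 1 (adjusted p = 0.0527). A stronger record lay 14.8 kb upstream of Ifnb1, in intergenic sequence. There RNAPII-pS2 scored 76.64 and 79.74 in ctrl/ctrl, 27.15 and 33.58 in IL-4 PT/ctrl, 95.35 and 94.09 in ctrl/LPS, and 69.31 and 71.72 in IL-4 PT/LPS. Both IL-4 groups lay below their partners without IL-4. With intergenic peaks counted, Ifnb1 was called lower after IL-4 alone (−1.30 ± 0.221, adjusted p = 0.0144, against 6.12% of 13050 genes).

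Compared directly under LPS, IL-4 PT and untreated cells were not told apart by the test at any of the 8 genes for either RNAPII form. For RNAPII-pS5, limma called 0 of 8 (7.66% of 9107 genes called higher and 3.49% lower), with 1 at an unadjusted p under 0.05 (2525 of all 9107). That gene was Ifnb1, at −0.80 (adjusted p = 0.109), which was called with the higher floor (adjusted p = 0.0189) and when only peaks with a score of at least 5 were used (0.041). For RNAPII-pS2, 0 of 8 were called (4.64% of 10610 genes higher and 3.11% lower), with 2 at an unadjusted p under 0.05 (2418 of all 10610). Ifnb1 scored 26.23 and 27.43 in ctrl/LPS against 17.19 and 15.79 in IL-4 PT/LPS (−0.77, adjusted p = 0.139), and Ifit3 28.95 and 31.86 against 17.59 and 13.85 (−1.03, adjusted p = 0.189). The Ifit3 peaks of ctrl/LPS lay past the end of Ifit2, at −6310 and −6031 bp, and those of IL-4 PT/LPS at the Ifit3 promoter, and within its own span the change was −0.83 (adjusted p = 0.168). At both genes the pretreated samples were lower without overlap, as at 4 of the 8 genes in all (22.5% of all genes).

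The difference between the LPS effects with and without pretreatment was tested as an interaction. For RNAPII-pS5, 0 of 8 passed (2.87% of 10610 genes higher and 2.81% lower), and the nearest was Rsad2 at 1.75 (adjusted p = 0.09). At an unadjusted p under 0.05 there was 1 of 8, against 2302 of all 10610. For RNAPII-pS2, 0 of 8 passed (3.05% of 11640 genes higher and 2.71% lower), with 1 of 8 at an unadjusted p under 0.05 (2426 of all 11640). The comparisons share samples, so their values stand side by side and were not correlated.

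The third question was where p65, the transactivating subunit of NF-kB, binds near these genes. The p65 peaks assigned to the 8 genes merged into 25 regions, of which 17 had a peak in at least 2 samples. After LPS, 10 of the 15 regions with a peak in the compared groups rose and 0 fell (33.9% of 29823 regions called higher and 5.73% lower), with a median of 1.90 against 0.64 for all regions. Several of the 10 had no peak in any sample without LPS. These entered the fit through the LPS groups alone, so the count is not read as support. Since p65 scores rose at most sites, the centring of the gene values took off 1.22 log2 units after LPS and 1.67 in IL-4 PT cells. Regions were centred on their own medians, and p65 changes are relative to such a shift. Without either ctrl/LPS sample the number called was 5.

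The Ifnb1 promoter region (chr4:88522516-88523298), which covers both kB matches printed above, had a p65 peak in all 8 samples. Its score was 9.29 and 19.57 in ctrl/ctrl and 14.43 and 11 in IL-4 PT/ctrl, and rose to 63.97 and 54.09 in ctrl/LPS and 56.11 and 61.78 in IL-4 PT/LPS. The LPS samples lay far above the others, while the 2 LPS groups overlapped. On the gene scale the change was 0.91 (adjusted p = 0.126), and without centring it was 2.13 (adjusted p = 0.00856). Ifnb1 also had 3 intergenic p65 regions, at −14.8, +7.1, and +18.8 kb. The one at +7.1 kb had no peak without LPS and scored 15.71 and 12.56 in ctrl/LPS and 13.94 and 12.29 in IL-4 PT/LPS (2.38 ± 0.208, adjusted p = 0.000858). It entered the fit through the LPS groups alone and was compared with the floor, so the adjusted p is not read as support.

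**Figure D3:**
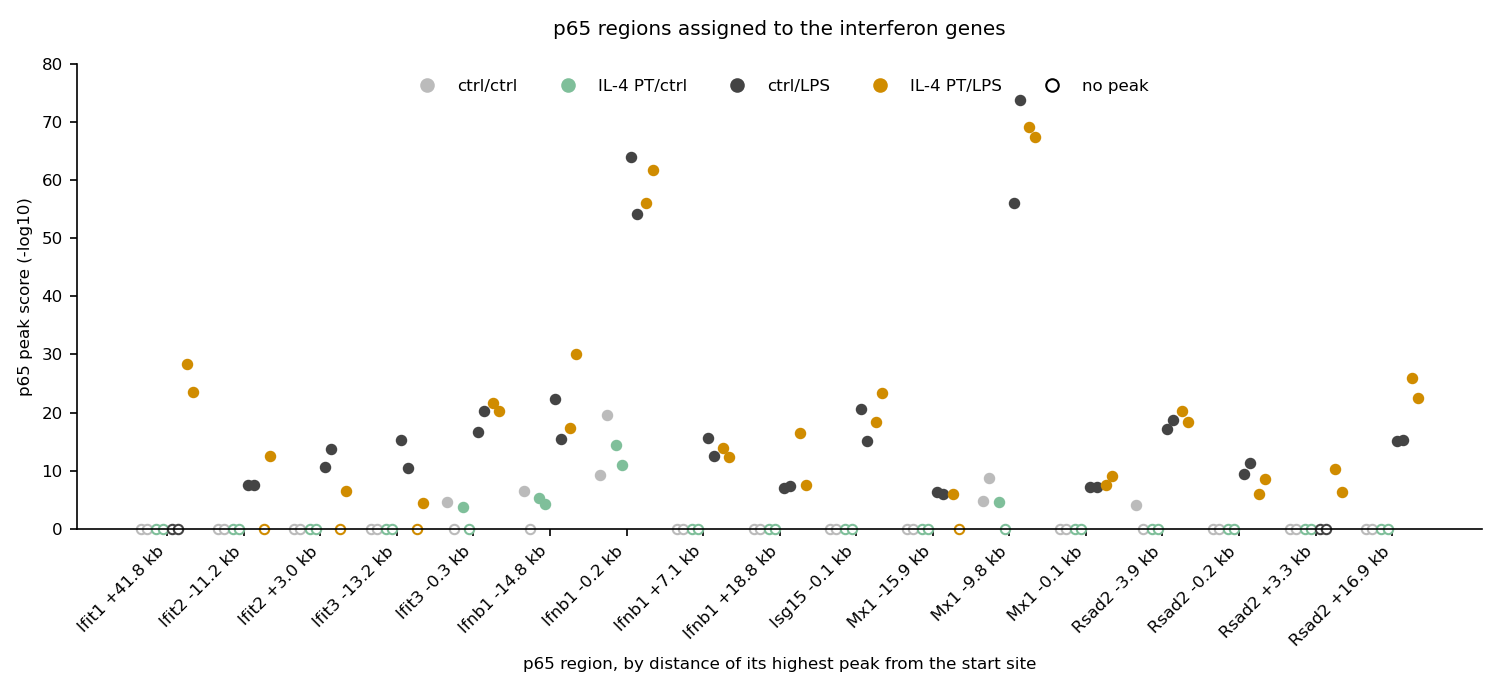
p65 peak score (−log10 scale) in each of the 8 samples at the 17 regions with a peak in at least 2 samples, ordered by gene and labelled by the distance of the highest peak from the start site. Open circles at 0 are samples without a peak. The Ifnb1 promoter and the Mx1 region at −9.8 kb score above 50 in the 4 LPS samples, and the Ifit1 region at +41.8 kb has peaks only in IL-4 PT/LPS.

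The Isg15 promoter (chr4:156200664-156201105) and the Rsad2 promoter (chr12:26456443-26456809) had no p65 peak in the 4 samples without LPS. Isg15 scored 20.66 and 15.11 in ctrl/LPS and 18.39 and 23.35 in IL-4 PT/LPS, and rose after LPS by 2.71 (adjusted p = 0.000783). Rsad2 scored 9.39 and 11.26 in ctrl/LPS and 5.94 and 8.65 in IL-4 PT/LPS. It rose after LPS by 1.93 (adjusted p = 0.00241), and was lower in IL-4 PT/LPS than in ctrl/LPS by a fitted −0.79 (adjusted p = 0.0498). Both promoters entered the fit through the LPS groups alone and their rise is against the floor. The adjusted p after LPS is therefore not read as support at either.

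Rsad2 showed more p65 regions than its promoter. At +16.9 kb, beyond the gene's 3′ end, scores were 15.13 and 15.27 in ctrl/LPS and 25.95 and 22.51 in IL-4 PT/LPS, with no peak in the other groups. In an intron at +3.3 kb, peaks of 10.34 and 6.4 were present in IL-4 PT/LPS only (2.37 ± 0.284 against ctrl/LPS, adjusted p = 0.00181). That site entered the fit through IL-4 PT/LPS alone and was compared with the floor, so the adjusted p is not read as support. The gene-level p65 value of Rsad2 after LPS (1.76, adjusted p = 0.0065) depended on the floor, and was −0.24 with the floor 4 times as high. With intergenic peaks counted it was 1.68 and not called (adjusted p = 0.0612).

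The strongest p65 region assigned to Mx1 lay 9.8 kb upstream, in an intron of the neighboring gene Fam3b (chr16:97472409-97472977). It scored 4.8 and 8.71 in ctrl/ctrl, 4.65 and no peak in IL-4 PT/ctrl, 56.09 and 73.78 in ctrl/LPS, and 69.1 and 67.41 in IL-4 PT/LPS. It rose after LPS by 2.27 ± 0.609 (adjusted p = 0.0282), and the LPS groups overlapped. The Mx1 promoter itself scored 7.24 and 7.18 in ctrl/LPS and 7.5 and 9.1 in IL-4 PT/LPS.

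Pretreatment was accompanied by higher p65 at 2 of the 17 regions and lower p65 at 2 (26% of 37081 regions called higher and 5.73% lower). Both higher regions had peaks only in IL-4 PT/LPS, the group with the longest p65 lists, and entered the fit through that group alone. The largest was the region at +41.8 kb from the Ifit1 start, which lies in an intron of Slc16a12 (chr19:34682487-34682908) and was assigned to Ifit1 by distance. It had peaks of 28.31 and 23.47 in IL-4 PT/LPS and none in the other 6 samples (4.03 ± 0.196, adjusted p = 0.000308). The comparison is with the floor in a region chosen through its high group, so the adjusted p is not read as support. In the 1 hr experiment this region had PU.1 peaks of 30.65 and 8.03 before and 23.07 and 24.35 with IL-4, which overlapped. The lower ones were the Rsad2 promoter and a region in Ifit2 at −13.2 kb from Ifit3, with 15.37 and 10.42 in ctrl/LPS and 4.5 and no peak in IL-4 PT/LPS (−2.65, adjusted p = 0.0167).

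By gene, p65 rose after LPS at Isg15, Rsad2, and Mx1, or 3 of the 6 genes with a peak (20.4% of 8839 genes called higher), and 0 fell (6.79% called lower). All 6 were separated between the groups, as were 61.3% of all genes. Without centring all 6 were called (44.5% of 8839 genes), so the count depends on whether the general rise of p65 is taken off. The call at Mx1 was lost without any 1 sample except those of IL-4 PT/ctrl. In IL-4 PT cells p65 rose at Ifit1, Isg15, Rsad2, and Mx1 (4 of 7, against 19% of 9736 genes called higher and 5.6% called lower), and there Mx1 lost its call without either IL-4 PT/LPS sample and Rsad2 without either IL-4 PT/ctrl sample. After 24 hr of IL-4 alone limma called 0 of 3 genes (4.76% of 6498 genes higher and 2.25% lower), with 0 at an unadjusted p under 0.05 (1301 of all 6498). Under LPS, IL-4 PT differed from no pretreatment at Ifit1 alone, 1 of 7 (11.9% of 9843 genes called higher and 2.17% lower), through the region in Slc16a12. The interaction with pretreatment was also called at Ifit1 alone, 1 of 7 (5.69% of 9925 genes called higher and 2.31% lower). Ifit1 had p65 peaks only in IL-4 PT/LPS and entered the p65 fit through that group alone. Its p65 calls are therefore not read as support. Isg15 and Rsad2 had no p65 peak outside intergenic sequence without LPS. They entered the fit through the LPS groups alone, and their p65 calls after LPS are not read as support either. Oasl1 had no p65 peak outside intergenic sequence in any sample.

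The fourth question was what IL-4 does within 1 hr. With peaks not annotated as intergenic, limma called 0 of the 8 genes for any of the 8 antibodies. H3K27Ac was the only antibody with many calls over all genes (13.1% of 11362 genes higher and 15.5% lower), and 0 of 5 genes had an unadjusted p under 0.05 (4820 of all 11362 did). At Isg15 H3K27Ac signal was 102.8 and 105.3 without IL-4 and 105.0 and 102.8 with it, which overlapped. For RNAPII-pS5, 0 of 6 passed (0.326% of 11958 genes higher and 0.552% lower), with 1 at an unadjusted p under 0.05 (1534 of all 11958). That was Ifit1, whose score was 20.32 and 22.32 without IL-4 and 4.44 and no peak with it (−2.97, adjusted p = 0.157). The untreated peaks lay at the Ifit1 promoter (−61 and −67 bp), and the 4.44 peak lay 41859 bp past the start, in an intron of Slc16a12. The fall was called under 2 of 15 alternatives, with peak centres or edges near the start.

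For p300, a histone acetyltransferase, 0 of 7 passed (0.839% of 13593 genes higher and 0.25% lower), with 1 at an unadjusted p under 0.05 (3087 of all 13593). That was Isg15, with 7.02 and 18.89 without IL-4 and 46.74 and 34.94 with it (1.00, adjusted p = 0.144), and the low first value came from the sample that stood apart. For PU.1, HDAC1, HDAC2, HDAC3, and RNAPII-pS2, 0% of all genes were called, and 0 of 7, 1 of 4, 1 of 4, 1 of 2, and 1 of 4 genes with a peak had an unadjusted p under 0.05. In the same order, 1064 of 11504, 905 of 10679, 789 of 8243, 626 of 4090, and 1286 of 8687 of all genes did. HDAC3 peaks assigned to the 8 genes were scarce, 19 in the 4 samples together, and at Mx1 scored 7.4 and 4.39 without IL-4 and 16.57 and 15.09 with it (1.14).

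The intergenic sites gave a different record for H3K27Ac. At −14.8 kb from Ifnb1, where p65 and RNAPII-pS2 also had peaks, H3K27Ac signal was 63.5 and 65 without IL-4 and 37.4 and 37.5 with it. At +7.1 kb it was 35.3 and 41.2 against 22.5 and 19.1, and at +18.8 kb 25.5 and 22.2 against 9.9 and no region. All 3 sites were lower after IL-4 without overlap, as were 44% of 28929 H3K27Ac regions before any centring. The p300 scores at −14.8 kb were 53.37 and 156.0 without IL-4 and 126.34 and 128.24 with it, which overlapped.

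Oasl1 had its highest H3K27Ac signal 1.0 kb upstream of its start, with 105.0 and 110.3 without IL-4 and 71.9 and 72.6 with it. With intergenic peaks counted, limma called Ifnb1 (−0.79 ± 0.0534, adjusted p = 0.00386) and Oasl1 (−0.58 ± 0.0598, adjusted p = 0.00776) lower, where 19.8% of 13035 genes were called lower and 15.1% higher. A second Oasl1 site at −6.3 kb carried PU.1, p300, HDAC1, and HDAC2 peaks in all 4 samples, with H3K27Ac of 35.6 and 40.6 without IL-4 and 26.5 and 22.6 with it.

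**Figure D4:**
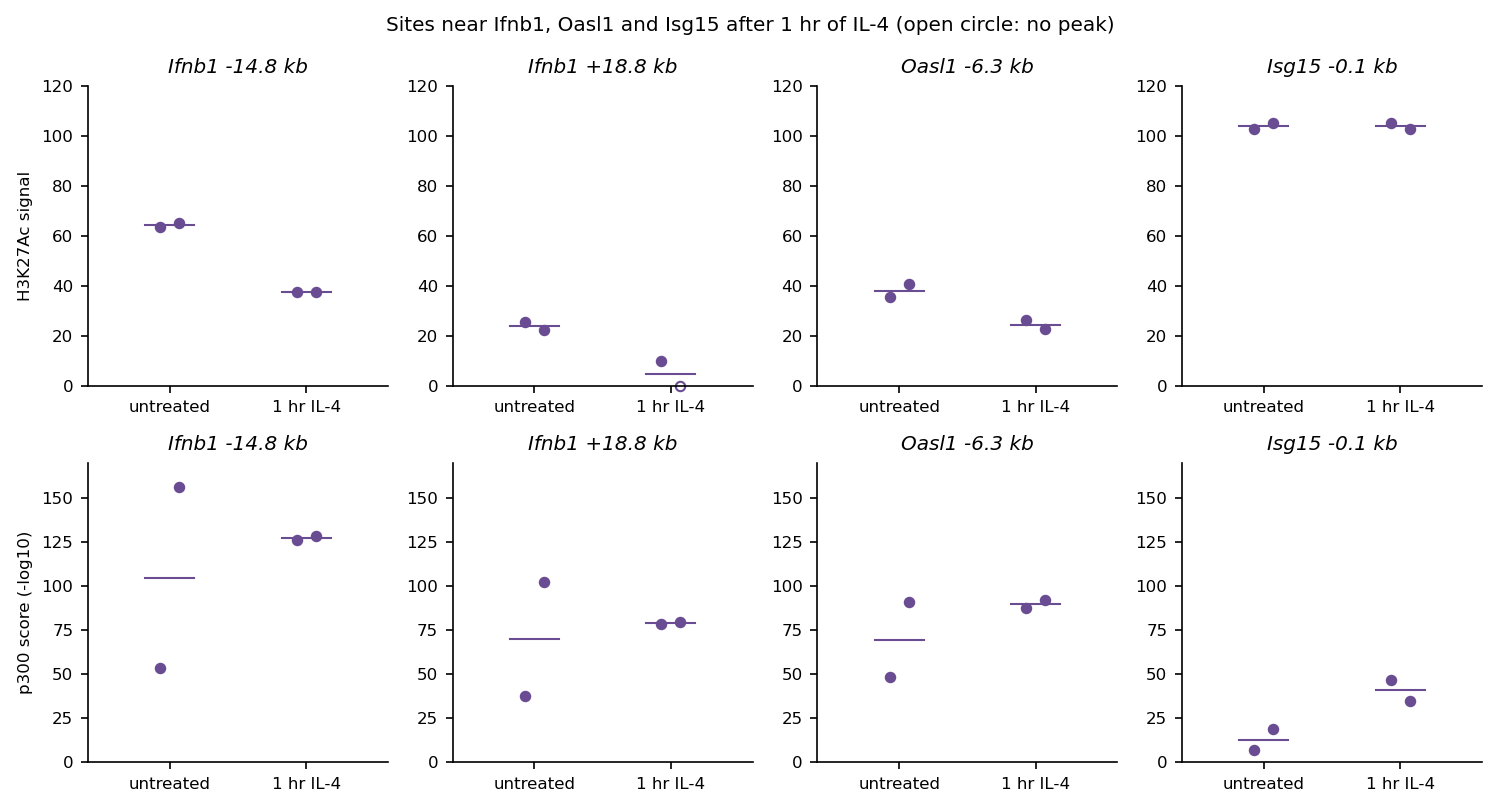
H3K27Ac signal (top, normalized tags) and p300 score (bottom, −log10 scale) in untreated BMDMs and after 1 hr of IL-4 at 4 sites, named by gene and distance from its start, 1 point per sample with the mean as a line. An open circle at 0 is a sample without a peak. H3K27Ac is lower after IL-4 at the 2 Ifnb1 sites and the Oasl1 site, and the same 2 values occur in both groups at Isg15 to within 0.3.

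The other genes of the pathway were counted from lists. Among 45 other interferon-stimulated genes with a RNAPII-pS5 peak, 17 rose and 1 fell after LPS, with a median of 1.09 (7.19% and 18.6% of all genes). For RNAPII-pS2, 3 of 46 rose and 4 fell, with a median of 0.31 (9.83% and 13% of all genes). Isg20, an exonuclease gene, rose by 3.39, Oas3, a 2′-5′-oligoadenylate synthetase gene, by 3.07, and Gbp5, a guanylate-binding protein gene, by 2.97, while Znfx1 changed by −1.17. In IL-4 PT cells 28 of 45 rose and 1 fell for RNAPII-pS5, with a median of 1.88 (6.43% and 13.9% of all genes), led by Ifi205 (3.99), Slfn8 (3.85), and Oas3 (3.66). For RNAPII-pS2, 17 of 46 rose and 3 fell there (8.11% and 9.55% of all genes). Of the 15 early NF-kB target genes with a peak, 9 rose and 0 fell after LPS, led by the chemokine genes Cxcl2 (4.07), Ccl4 (3.76), and Cxcl1 (2.74).

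Of the 7 genes of the interferon receptor and its signal transducers, 0 were called after LPS for RNAPII-pS5, in untreated or in IL-4 PT cells. In the sensing pathway, the kinase genes Tbk1 (1.26) and Ikbke (1.14) rose after LPS and the adaptor genes Ticam2 (−2.69) and Mavs (−1.80) fell, 2 and 2 of 11. Within their own spans Ikbke (0.34) and Ticam2 (−0.23) were not called, and the calls at Tbk1 and Ikbke held on leaving out 2 and 1 of the 8 samples, respectively, and were lost without any of the others. After 24 hr of IL-4 alone, RNAPII-pS5 at the transcription factor gene Irf7 fell from 38.47 and 40.28 to 7.87 and 9.87 (−2.18, adjusted p = 0.0103), and the RNA sensor gene Ddx58 changed by −2.23, a call that was lost within its own span (adjusted p = 0.187). Of 45 other interferon-stimulated genes 0 rose and 4 fell after IL-4 alone (3.01% of all genes), Slfn8 (−2.22), Ifitm3 (−1.89), and Pml (−1.83) by the most. With the replicate number as a block 2 fell. For RNAPII-pS2, 0 of 46 rose and 6 fell (5.66% of all genes).

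Under LPS, 0 of 46 other interferon-stimulated genes were higher and 1 was lower in IL-4 PT cells for RNAPII-pS5, namely Ifi44 (−2.10), near the 3.49% of all genes called lower. The interaction passed at 1 of 11 sensing genes and 2 of 46 other interferon-stimulated genes, against 2.87% of all genes called higher. These were Irf7 (2.31, adjusted p = 0.0366), Slfn8 (2.50, adjusted p = 0.0307), and Pml (2.50, adjusted p = 0.0381), and all 3 calls were lost on leaving out any 1 of the 8 samples and with the replicate number as a block (adjusted p of 0.0757 to 0.0822). Irf7 scored 61.72 and 64.75 in IL-4 PT/LPS. For p65, 20 of 43 other interferon-stimulated genes were higher and 2 lower after LPS (20.4% and 6.79% of all genes). Of 15 early NF-kB target genes 5 were higher and 4 lower, with a median of −0.19. Among the lower ones Tnfaip3 scored 138.25 and 128.78 in ctrl/LPS and 155.33 and 153.58 in ctrl/ctrl (−1.43). These p65 changes are relative to the general rise that the centring took off. After 1 hr of IL-4, p300 at Stat2 went from 6.88 and 19.31 to 86.89 and 92.28 (2.15, adjusted p = 0.0478, the first untreated sample being the one that stood apart). This call was lost on leaving out any 1 of the 4 samples and with the replicate number as a block (adjusted p = 0.106).

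The genes whose RNAPII values over the 16 RNAPII samples were most like the mean of the 8 genes were Cxcl10 (Pearson r = 0.988), Ccl3 (0.979), Actr2 (0.972), Marcksl1 (0.967), and Trafd1 (0.966), of 8933 genes. The 16 points share libraries and an LPS split, and the r values are a description.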

How the data were processed

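ChIP-seq peaks of 9 antibodies in 56 BMDM samples were analysed. The authors aligned reads to mm10 (BWA 0.7.10, SAMtools 0.1.19), called peaks per sample with MACS2 2.0.10 (q-value of 0.01) or, for H3K27Ac, with HOMER 4.2 (regions of 1000 bp), and annotated them with HOMER, with versions from the submitters' processing notes. The deposited MACS2 score is the −log10 of a p-value or q-value (the scale was inferred from the values, and which of the 2 it is remains not given in the sources used here), and the deposited H3K27Ac value is a signal of normalized tags. No input control is given in the sources used here, and depth is unknown.

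Highest scores per gene (peaks not intergenic) were put on a log2 scale, missing peaks set to the lowest score, samples centred, and the genes that had peaks in 2 or more samples fitted with limma 3.58.1 (R 4.3.3, all groups of an experiment together, Benjamini-Hochberg over all genes, called at 0.05). A call needed a peak in a compared group. Peaks of p65 overlapping by at least 1 bp were merged into regions and fitted likewise. An exact permutation test of 2 against 2 samples cannot go below p = 0.333 and was not used. The scripts were tested on simulated data. Named were all 8 genes and, per list, up to 3 called genes with the largest rise or fall, with the 5 genes of most like pattern. The 8 genes and the lists were chosen with earlier results of these data known. Replicates are separate by the study's methods. Replicate numbers did not pair the samples (correlation of deviations −0.055 to 0.073). Alternatives were the sum of scores, all peaks, peaks near the start or within the gene's span, no centring, a higher floor, a minimum score of 5, other peak minimums, an adjusted p of 0.1, a replicate block, a merge gap of 500 bp, and leaving out each sample. Python 3.11.15, NumPy 2.4.6, pandas 2.3.3, and matplotlib 3.10.9 were used. No RefSeq promoter of Mx1 was used here. The result for 1 gene of the lists is not reported here.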

Additional observations from a re-analysis of the deposited data

Results flagged for a closer look

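The difference between the LPS effects on p65 with and without IL-4 pretreatment passed the interaction test at 1 of the 8 genes, Ifit1 (3.85 ± 0.339, limma, adjusted p = 0.0177), where 5.69% of 9925 genes were called higher. The value comes from 1 region in an intron of Slc16a12, 41.8 kb from the Ifit1 start, with p65 peaks of 28.31 and 23.47 in IL-4 PT/LPS and none in the other 6 samples. Ifit1 entered the p65 fit only through IL-4 PT/LPS, the group where it is high, so the p-value is not read as support. The size depends on the floor, and with the floor 4 times as high it was 1.85. Leaving out any of the 4 samples without LPS gave an adjusted p between 0.0541 and 0.0697, with values between 3.81 and 3.89. Counting only peaks within the gene's own span leaves Ifit1 without a p65 call.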

How the results depend on the processing

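Of 27 called changes at the 8 genes, 496 values were recomputed under the alternatives, and 413 kept direction and call, 74 kept direction and lost the call, and 9 reversed. With only peaks centred within 1000 bp of the start, Isg15 RNAPII-pS5 turned to −2.94 after LPS and −3.86 in IL-4 PT cells, Ifnb1 RNAPII-pS2 after LPS to −1.34, and Isg15 RNAPII-pS2 in IL-4 PT cells to −3.41, because wide peaks have distant centres. With the floor 4 times as high, Ifnb1 RNAPII-pS2 after IL-4 alone turned to 0.14 and Rsad2 p65 to −0.24 after LPS and −0.81 in IL-4 PT cells, and with scores of at least 5 Rsad2 p65 turned to −0.031 and −0.66. Of 120 changes not called, 77 changed sign under some alternative, 31 were called in their own direction, and 3 were called in the opposite one.

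The number of the 8 genes called moved as follows, and apart from the construction named the cause was not tested. RNAPII-pS5 after LPS (4) was 7 with the stricter score, and in IL-4 PT cells (6) 3 with peak edges within 1000 bp of the start. RNAPII-pS5 after IL-4 alone (1) was 4 with all peaks, 2 at an adjusted p of 0.1 or in the gene's own span, and 0 with peak centres or edges near the start, the higher floor, or the stricter score. RNAPII-pS5 under LPS (0) was 1 with the higher floor or stricter score, and its interaction (0) was 1 with summed scores, all peaks, no centring, an adjusted p of 0.1, or the own span. RNAPII-pS2 after LPS (2) was 0 with all peaks and 4 with no centring, the higher floor, the stricter score, an adjusted p of 0.1, or the own span. In IL-4 PT cells (4) it was 1 with peak centres near the start, after IL-4 alone (1) 2 with summed scores, no centring, or an adjusted p of 0.1, and under LPS (0) 1 with the higher floor. p65 after LPS (3) was 6 with no centring, which moved the share of all calls that were higher from 75.0% to 97.4%. The same setting moved it from 68.7% to 82.1% for RNAPII-pS5 under LPS, 50.5% to 69.0% for its interaction, 45.9% to 61.4% for RNAPII-pS2 in IL-4 PT cells, 53.0% to 63.8% for its interaction, 77.3% to 99.0% and 71.2% to 85.1% for p65 in IL-4 PT cells and its interaction, and 37.1% to 57.4% for RNAPII-pS5 and 77.0% to 97.7% for p300 after 1 hr of IL-4. p65 under LPS (1) was 0 with peak centres or edges near the start or the own span and 2 with the higher floor, stricter score, or an adjusted p of 0.1, and its interaction (1) was 0 and 2 under the same settings, without change at an adjusted p of 0.1. For 1 hr of IL-4, RNAPII-pS5 (0) was 1, namely Ifit1, with peak centres or edges near the start. RNAPII-pS2 (0) was 1 with the higher floor, and H3K27Ac (0) was 2 with all peaks and 1 with the own span or edges.

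Leaving out each sample in turn gave 2 to 5 for RNAPII-pS5 after LPS (2 without either ctrl/LPS sample), 2 to 5 in IL-4 PT cells (2 without IL-4 PT/LPS replicate 1, 3 without IL-4 PT/ctrl replicate 2), and 0 to 2 after IL-4 alone (0 without IL-4 PT/ctrl replicate 2). RNAPII-pS2 gave 2 to 4 after LPS (4 without either IL-4 PT/ctrl sample), 3 to 4 in IL-4 PT cells, and 0 to 2 after IL-4 alone (0 without ctrl/ctrl replicate 1). p65 gave 2 to 3 after LPS, 3 to 4 in IL-4 PT cells, 1 to 2 under LPS (2 without IL-4 PT/LPS replicate 2), and 0 to 2 for the interaction (0 without any sample lacking LPS). The p65 regions called were 5 to 10 after LPS and 2 to 8 under LPS (8 without IL-4 PT/LPS replicate 2, 2 without ctrl/LPS replicate 1). All 1 hr counts were 0, as were both RNAPII counts under LPS and for the interaction.

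With the replicate number as a block, the p65 interaction count was 0 (Ifit1, 3.85, adjusted p = 0.0639), and calls were lost at Isg15 RNAPII-pS5 in IL-4 PT cells (1.51, adjusted p = 0.0541) and Mx1 p65 after LPS (2.10, adjusted p = 0.0713). It changed no other call at the 8 genes. Over all genes it left 0 calls for the 3 interactions (RNAPII-pS5 from 304 higher and 298 lower) and, after 1 hr of IL-4, for RNAPII-pS5 (from 39 and 66) and p300 (from 114 and 34), and took H3K27Ac from 1494 and 1761 to 952 and 1061, so the calls at Irf7, Slfn8, Pml, and Stat2 were lost. The numbers did not pair the samples. Scores without depth limit all values, most of all near the floor.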
